A study of Mus musculus with 2 samples.

Results

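Strong intergenic NRF1 peaks are places in CH12.LX chromatin with high nuclear respiratory factor 1 signal, outside protein-coding genes and away from their starts. They were selected on measured values from the deposited optimal peak set on mm10, chromosomes 1 to 19. The peak signal had to be 50 or more. The summit had to lie over 5000 bp from every start site (TSS) of a protein-coding gene and outside the bounds of every such gene. No distance from the other end of a gene was required. The rule gave 892 peaks, which were 5.17% of the 17256 optimal peaks on these chromosomes (17554 on all chromosomes) and 12.6% of the 7093 peaks with a signal of 50 or more. The material was a single group of 2 NRF1 chromatin immunoprecipitation libraries of CH12.LX, an immortalized female mouse B-cell lymphoma line of strain B10.H-2aH-4bp/Wts for which the labels name no treatment. The 2 libraries are labelled biological replicates 1 and 2 of that line, so their spread does not cover different animals, and whether they came from separate cultures is not stated. No control library was analysed here, the sources used here do not give the read depth, and no comparison between conditions was possible.

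NRF1 is a transcription factor that binds DNA as a homodimer at a GC-rich palindrome, the NRF1 consensus, which holds CpG dinucleotides. It is best known from promoters with CpG islands, where it acts on nuclear genes for mitochondrial proteins and on many housekeeping genes, and methylation of the CpGs in its site is known to weaken binding. Strong peaks outside coding genes are therefore described here by strength in each replicate, noncoding genes beside them and DNA under their summits.

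The DNA under the strongest of these peaks is shown first. The mm10 genome sequence was not used here, so windows of 101 bp were read from mm9 (NCBIM37, plus strand) around the summit of the mm9 peak that lay alone between the same neighbouring coding genes as the mm10 peak. These windows belong to 5 of the 12 strongest members, and capitals mark the sites with the fewest mismatches to the NRF1 consensus, of at most 1.
Chic2 to Gsx2, chr5:75463334-75463434: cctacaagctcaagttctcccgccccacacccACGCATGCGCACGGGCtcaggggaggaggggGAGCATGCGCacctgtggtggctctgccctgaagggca
Kcnrg to Dleu7, chr14:62267735-62267835: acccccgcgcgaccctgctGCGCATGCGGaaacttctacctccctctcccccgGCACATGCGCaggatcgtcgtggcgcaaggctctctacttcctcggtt
BC048679 to Fsd2, chr7:88668302-88668402: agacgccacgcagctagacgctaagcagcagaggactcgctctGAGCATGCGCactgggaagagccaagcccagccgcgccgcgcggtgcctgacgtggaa
Kif14 to Zfp281, chr1:138465594-138465694: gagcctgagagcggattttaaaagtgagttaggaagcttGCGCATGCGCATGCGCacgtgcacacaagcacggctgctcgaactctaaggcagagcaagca
Mgat3 to Mief1, chr15:80049753-80049853: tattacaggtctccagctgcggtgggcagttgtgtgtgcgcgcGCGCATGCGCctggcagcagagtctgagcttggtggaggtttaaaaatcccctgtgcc
All 5 windows held a site. The windows beside Zfp281 and Mief1 held the exact consensus, and in the other 3 the best site had 1 mismatch. The 1000 bp around these summits differed in base composition. CpG observed/expected was 0.913 in the Kcnrg to Dleu7 interval and 0.295 in the Mgat3 to Mief1 interval, where values near that of unbiased sequence mark CpG islands and low values mark the CpG-depleted bulk of the genome.

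The 12 strongest members had signals between 638 and 663, near the top of the whole set. The signal is the peak caller's value in the deposited list, and the sources used here do not state its scaling. The strongest, at 662.8, lay on chromosome 11 between 117427745 and 117428145 (mm10), 65617 bp from Septin9, which encodes a septin of the cytoskeleton, and 225761 bp from Tnrc6c. It ranked 43rd among all optimal peaks on chromosomes 1 to 19. Its signal was 332 in replicate 1 and 333 in replicate 2.

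Next came a peak of 656.7 on chromosome 5 (75067150 to 75067543), 8249 bp from Gsx2, a homeobox gene, with 316 in replicate 1 and 342 in replicate 2. A peak of 653.9 on chromosome 14 (61648754 to 61649130) lay between Kcnrg and Dleu7, with 325 in replicate 1 and 329 in replicate 2. In RefSeq, the nearest noncoding start to it was that of Mir15a, 16835 bp away. Mir15a encodes a microRNA of a cluster known as a tumour suppressor in human B-cell leukaemia. At the mm9 peak matched to this member, the mm9 annotation (GENCODE vM1) had a noncoding or pseudogene start 135 bp from the summit. Both libraries gave high values at these 3 places.

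A peak of 644.5 on chromosome 1 (171044566 to 171044928) lay between Fcgr4 and Fcgr3, which encode receptors for the constant part of IgG, and it had 301 in replicate 1 and 348 in replicate 2, the widest gap between replicates among the 12. A peak of 648.7 on chromosome 16 (50732597 to 50732913) had 334 in replicate 1 and 318 in replicate 2. It lay between Ccdc54 and Cblb, 1298468 bp from Cblb, a ubiquitin ligase gene that restrains lymphocyte activation. Its nearest coding start was not that of Cblb, since no member lay over 1132828 bp from one.

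A further 6 lay between BC048679 and Fsd2 (651.0), Rcc1 and Phactr4 (650.2), Adcy9 and Srl (648.8), Kif14 and Zfp281 (644.4), Cstad and 1700001O22Rik (641.9), and Mgat3 and Mief1 (637.8), in signal. Across the 12, the replicate signal ran from 301 to 334 in replicate 1 and from 318 to 348 in replicate 2, and replicate 2 was the higher in 10 of them.

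Over all members the lowest signal was 50.01, the median 111 and the highest 663, with quartiles of 67.5 and 259. The distribution was bottom-heavy, with 407 members (45.6%) under 100, 198 at 300 or more, 77 at 500 or more and 25 at 600 or more. The median was 130 in the 695 strong gene-body peaks, which lie equally far from a TSS but inside a coding gene, and 273 in the 4969 strong promoter peaks, which lie within 1000 bp of a TSS. These levels chose the members and are given as a description. A signal of 50 or more was reached by 26.8% of the 3333 intergenic peaks, by 23.7% of 2927 gene-body peaks and by 54.1% of 9180 promoter peaks.

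At the threshold, the weakest members had signals of 50.01 (Nrep to Epb41l4a), 50.03 (Coa7 to Shisal2a) and 50.09 (Kcp to Irf5). The intergenic peaks just outside had 49.77 (Zfp322a to Abt1), 49.76 (Tex44 to Ptma) and 49.58 (Sntb2 to Vps4a). At the distance limit, the nearest members lay 5095 bp from Cd248, 5145 bp from H2bc13 and 5184 bp from Cyth4, and peaks just outside lay 4934 bp from Guca2b and 4845 bp from Map1lc3b. The peak just outside at Map1lc3b had a signal of 594, above the median of the members.

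Nearly all members were found in each replicate on its own. Of the 892, 888 (99.6%) overlapped the 17256 strongest peaks of both replicate lists, where 70.2% of all optimal peaks did so. Since the optimal set was itself selected on both replicates and the members on their signal, this is a description. The median signal was 59.4 in replicate 1 and 55.4 in replicate 2. Spearman's rho between replicates across members was 0.861, against 0.909 across strong gene-body peaks and 0.966 across strong promoter peaks, as a description of peaks that share libraries and span different signal ranges. The replicates differed by more than 2-fold at 69 of the members, and 1 member, 199 bp from another one between Rps24 and Zmiz1, overlapped no peak in the list of replicate 2.

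**Figure D1:**
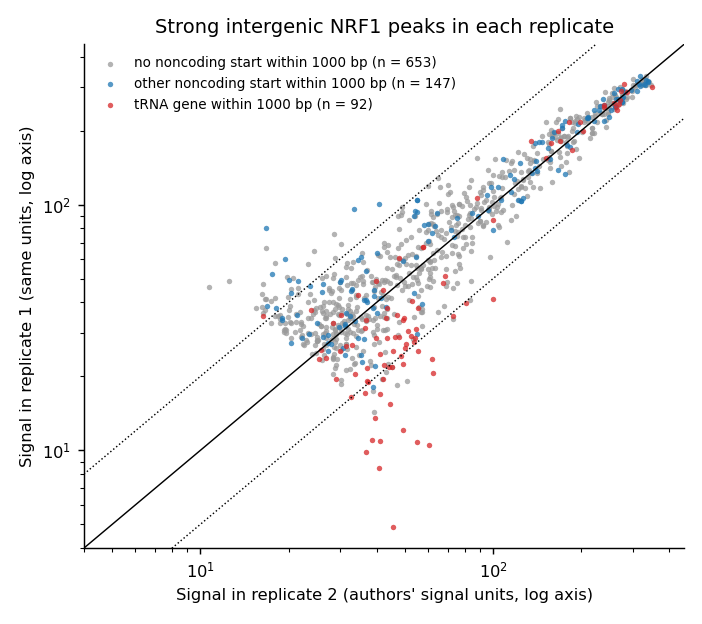
Signal of each strong intergenic NRF1 peak in replicate 1 (vertical axis) against replicate 2 (horizontal axis), both on log axes in the authors' signal units, with equal signal on the solid line and a 2-fold difference on the dotted lines. Peaks near tRNA genes fall below the line at low signal: replicate 1 was the lower in 69 of these 92 peaks.

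Members stood at widely differing distances from coding starts. The median distance from summit to the nearest coding TSS was 28625 bp, with quartiles of 13881 and 67035 bp. Of the members, 148 (16.6%) lay up to 10000 bp from a TSS, with a median signal of 118. A further 445 lay up to 50000 bp away with a median of 117, and 160 up to 100000 bp away with a median of 121. The 139 members beyond that had a median of 94.6. The median signals of the 3 nearer bins thus lay close together. Summits also clustered, as 159 members had another member within 10000 bp and 62 had one within 1000 bp.

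**Figure D2:**
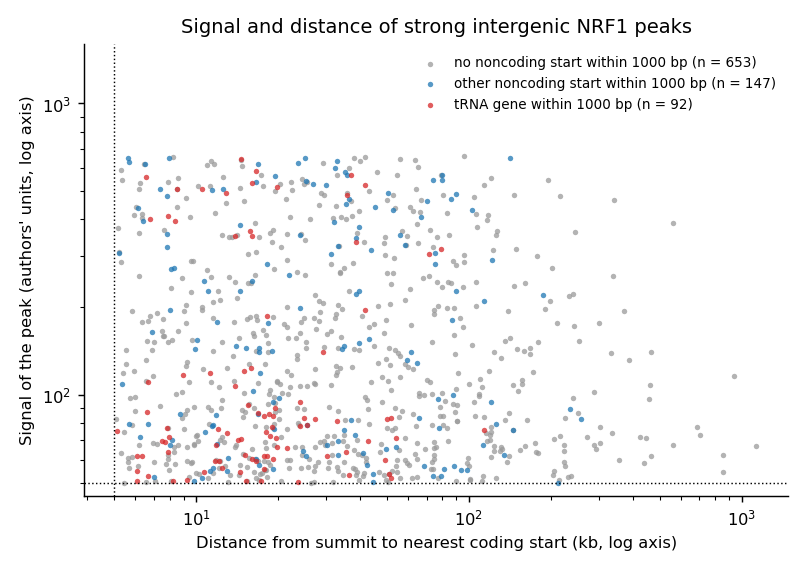
Signal of each strong intergenic NRF1 peak (vertical axis, log, authors' units) against the distance from its summit to the nearest coding start (horizontal axis, kb, log), coloured by the noncoding start within 1000 bp, with dotted lines at the signal of 50 and the distance of 5 kb that chose the peaks. High signals occur across the whole range of distances up to 100 kb, and of the 92 peaks near tRNA genes 20 reach a signal of 300.

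Many members sat at the starts of noncoding genes. A noncoding start in the RefSeq annotation lay within 1000 bp of 239 members (26.8%, 95% interval 24 to 29.8), against 302 of the 2441 weaker intergenic peaks (12.4%, 11.1 to 13.7). The odds ratio was 2.59 (two-sided Fisher's exact test, adjusted p = 3.84e-21), and the share over all optimal peaks was 12.3%. The nearest such start belonged to a long noncoding RNA (lncRNA) for 129 members and to a tRNA gene for 89. The median distance to the start was 63.0 bp, and 136 members lay within 100 bp. The remaining 653 members had no noncoding start so close, and 514 (57.6%) lay neither near a start nor inside a noncoding gene. On mm9, a noncoding or pseudogene start lay within 1000 bp of 48 of 478 strong intergenic peaks (95% interval 7.66 to 13.1%). It lay so close to 79 of 1311 weaker ones (6.03%), with 7.20% over all mm9 peaks. The odds ratio was 1.74 (two-sided Fisher's exact test, adjusted p = 0.00719). The mm9 annotation is older and sparser, and it lacks some tRNA genes. In the Shf to Slc28a2 interval, where RefSeq has tRNA genes, it placed the nearest noncoding start 9954 bp from a strong mm9 peak. The mm9 share is therefore not a like measure to the 26.8% on mm10. The mm10 comparison without tRNA genes, given below, is nearer in kind.

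Among the 12 strongest members, 5 lay within 1000 bp of a RefSeq noncoding start, of which 4 belonged to lncRNAs and 1 to a tRNA gene. Snhg3, which hosts small nucleolar RNAs, is an example. The summit between Rcc1 and Phactr4 lay 19 bp from the start of Snhg3 and had 322 in replicate 1 and 333 in replicate 2, and the summit between Ccdc54 and Cblb lay 11 bp from the start of the lncRNA Dubr. The summit beside Fsd2 lay 87 bp from the start of the lncRNA 2900076A07Rik. The RefSeq promoters (GRCm38.p6) of Snhg3 and Dubr run from 250 bases before to 50 after the start. They read 5′ to 3′ on the minus strand of the genome, with the site of fewest mismatches in capitals. They are shown because the summits there lay beside annotated starts of named transcripts.
Snhg3, chr4:132353637-132353936: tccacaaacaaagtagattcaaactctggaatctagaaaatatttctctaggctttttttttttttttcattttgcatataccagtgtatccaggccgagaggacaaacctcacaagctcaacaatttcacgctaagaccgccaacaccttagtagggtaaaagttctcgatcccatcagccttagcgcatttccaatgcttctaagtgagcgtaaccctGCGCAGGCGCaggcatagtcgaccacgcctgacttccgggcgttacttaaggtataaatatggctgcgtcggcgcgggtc
Dubr, chr16:50732724-50733023: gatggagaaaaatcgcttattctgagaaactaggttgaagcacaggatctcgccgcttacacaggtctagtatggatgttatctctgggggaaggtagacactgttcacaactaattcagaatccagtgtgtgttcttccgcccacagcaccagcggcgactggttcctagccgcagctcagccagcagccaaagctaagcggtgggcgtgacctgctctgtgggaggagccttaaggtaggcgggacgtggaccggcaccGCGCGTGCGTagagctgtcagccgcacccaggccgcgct
Both promoters held a site with 1 mismatch. In all, 105 members had a noncoding promoter in this RefSeq table within 1000 bp, and 27 of those windows (25.7%) held a site of up to 1 mismatch, against 3.85% of the 11311 noncoding promoters of the table. Of the 49 windows that also held the summit, 23 (46.9%) had a site and 7 had the exact consensus. Chaserr, a lncRNA upstream of the chromatin remodeller gene Chd2, was chosen after its values were seen: its member had a signal of 618, with 305 in replicate 1 and 317 in replicate 2.

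On mm10, tRNA genes, which are transcribed by RNA polymerase III, lay beside members more often than beside weaker intergenic peaks. A tRNA gene lay within 1000 bp of 92 members (10.3%, 95% interval 8.49 to 12.5), against 52 weaker intergenic peaks (2.13%, 1.63 to 2.78). The odds ratio was 5.28 (two-sided Fisher's exact test, adjusted p = 4.63e-21), and the share over all optimal peaks was 1.30%. Of the 92 members, 35 lay in a single stretch of chromosome 13, described below. The test counted each as independent, and it was not run without that stretch. A noncoding start within 1000 bp but no tRNA gene so close was found for 147 of the 892 members (16.5%), against 250 of the 2441 weaker intergenic peaks (10.2%), an odds ratio of 1.73 (same exact test, adjusted p = 3.47e-06). Of 391 annotated tRNA genes, 111 (28.4%) had a member within 1000 bp and 208 (53.2%) had any optimal peak. The median distance between summit and tRNA gene was 32.0 bp.

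Members near tRNA genes had a lower median signal than the others, while their share at 300 or more was 21.7%. Their median signal was 76.7, against 120 for the other 800 members. Of the 92, 20 reached 300. Among the other members, 128 of the 653 not near a noncoding start (19.6%) and 50 of the 147 near another noncoding start (34.0%) did. The strongest lay between Fcgr4 and Fcgr3, 229 bp from n-TGgcc4, a glycine tRNA gene. A peak of 588.9 at Abi3, with 310 in replicate 1 and 279 in replicate 2, lay 164 bp from n-TQttg6. A stretch of chromosome 13, from 21 to 24 Mb, held 35 members, and all 35 lay within 1000 bp of a tRNA gene, with signals between 50.5 and 119. With 11.4% of its peaks being members, chromosome 13 had the highest share of any chromosome, followed by chromosome 12 with 9.37%.

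At these peaks the signal tended to be lower in replicate 1. The median signal of members near tRNA genes was 31.3 in replicate 1 and 49.1 in replicate 2, and replicate 1 was the lower in 69 of 92. In the 147 members near another noncoding start, the medians were 94.4 in replicate 1 and 73.6 in replicate 2, and replicate 1 was the lower in 51 (34.7%). In members with no noncoding start nearby, they were 59.7 in replicate 1 and 56.5 in replicate 2, and replicate 1 was the lower in 239 of 652 (36.7%). Of the 32 members where replicate 1 was under 0.5 times replicate 2, 22 lay near a tRNA gene, whereas of the 37 with the opposite difference 1 did. In the chromosome 13 stretch the medians were 21.8 in replicate 1 and 41.0 in replicate 2, and among the 57 members near tRNA genes elsewhere they were 41.4 in replicate 1 and 57.4 in replicate 2. The shift was thus present in and outside that stretch. With 2 libraries no test of a difference between them is possible.

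The DNA under the summits was examined on mm9. The mm9 set was made separately by the authors, with no control named among its inputs, and its signal is on another scale. The strongest 41.1% of its peaks, the same percentage as the optimal peaks at 50 or more, gave 4513 strong peaks, of which 478 were intergenic by the same rule, 283 were in gene bodies and 3475 were at promoters. Of 590 members with no other member between their neighbouring coding genes, 342 were matched to the only intergenic mm9 peak in the same interval. The distance to a flanking gene differed by at most 1000 bp between builds, and by at most 100 bp for 317 of the 342. Weaker mm10 peaks could share the interval. Many matched mm9 peaks were below the strong limit, an mm9 signal of 155. These included most of the mm9 peaks matched to members with an mm10 signal under 100. Such weaker members are thus poorly covered by the tests on strong mm9 peaks. The tests below concern the 478 strong intergenic mm9 peaks, and the matched members are used only as a description.

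Most strong intergenic mm9 peaks carried an NRF1 site at the summit. A site of up to 1 mismatch to the consensus, on either strand and within 50 bp of the summit, was present in 280 of 478 (58.6%, 95% interval 54.1 to 62.9), against 33.7% of all mm9 peaks. In windows of the same length 500 bp to the left, 3 of the 478 (0.628%) held one. A site at the summit alone was found in 278 peaks and at the left window alone in 1 (two-sided exact binomial test, adjusted p = 1.73e-81). Within 250 bp, the centre of the best site lay a median of 9.5 bp from the summit, and within 20 bp in 255 of 288 peaks (88.5%), against 145 of 160 strong gene-body peaks (90.6%, also with a median of 9.5 bp) and 1807 of 2312 strong promoter peaks (78.2%). In weaker intergenic peaks, 251 of 1311 (19.1%) had a site at the summit.

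**Figure D3:**
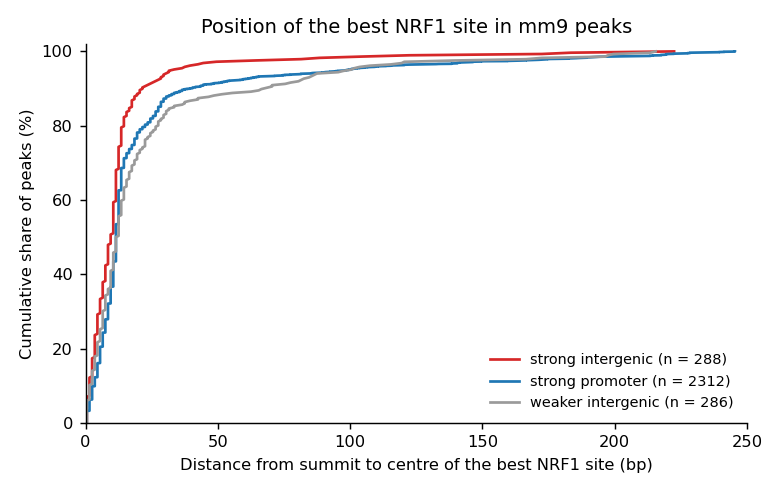
Cumulative share of mm9 peaks (vertical axis, %) by the distance in bp from summit to the centre of the best NRF1 site (horizontal axis), for peaks with a site within 250 bp. Of the 3 curves drawn, that of strong intergenic peaks (n = 288) has the highest share within 20 bp of the summit, 88.5%, and strong gene-body peaks, which are not drawn, had 90.6%.

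The share with a site did not differ detectably from that of strong peaks elsewhere. It was 58.6% in strong intergenic peaks and 62.1% (60.4 to 63.7) in strong promoter peaks, an odds ratio of 0.864 (two-sided Fisher's exact test, adjusted p = 0.175). In strong gene-body peaks it was 55.1% (49.3 to 60.8), an odds ratio of 1.15 (same exact test, adjusted p = 0.364). The exact consensus was rarer than at promoters, in 63 strong intergenic peaks (13.2%) against 741 strong promoter peaks (21.3%), an odds ratio of 0.56 (same exact test, adjusted p = 3.73e-05). In strong gene-body peaks it was in 33 (11.7%), a difference that did not pass (odds ratio 1.15, same exact test, adjusted p = 0.638). It was present in 8.73% of all mm9 peaks.

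Promoter peaks were much stronger, with a median mm9 signal of 445 in strong intergenic, 362 in strong gene-body and 1301 in strong promoter peaks, so the shares were also compared within 4 bins of equal size by the signal of all strong peaks. In the lowest bin, 47.9% of 192 intergenic peaks and 29.2% of 689 promoter peaks had a site, an odds ratio of 2.23 (two-sided Fisher's exact test, adjusted p = 3.47e-06). In the second bin the shares were 56.9% of 153 intergenic and 44.6% of 799 promoter peaks, an odds ratio of 1.64 (same exact test, adjusted p = 0.00925). In the third they were 66.2% and 71.8% (odds ratio 0.771, exact test, adjusted p = 0.413), and in the highest 90.6% of 53 intergenic and 88.7% of 1026 promoter peaks (odds ratio 1.22, adjusted p = 0.825). In both lower bins, intergenic peaks thus carried a site more often than promoter peaks. The exact consensus differed within no bin, with adjusted p-values of 0.61, 0.413, 0.82 and 0.638 from the lowest to the highest. Among matched members, a site was present in 52 of 151 with an mm10 signal under 100 (34.4%), in 65 of 115 from 100 to 300 (56.5%) and in 56 of 76 at 300 or more (73.7%). Over all 342 matched members, 173 (50.6%) had a site.

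**Figure D4:**
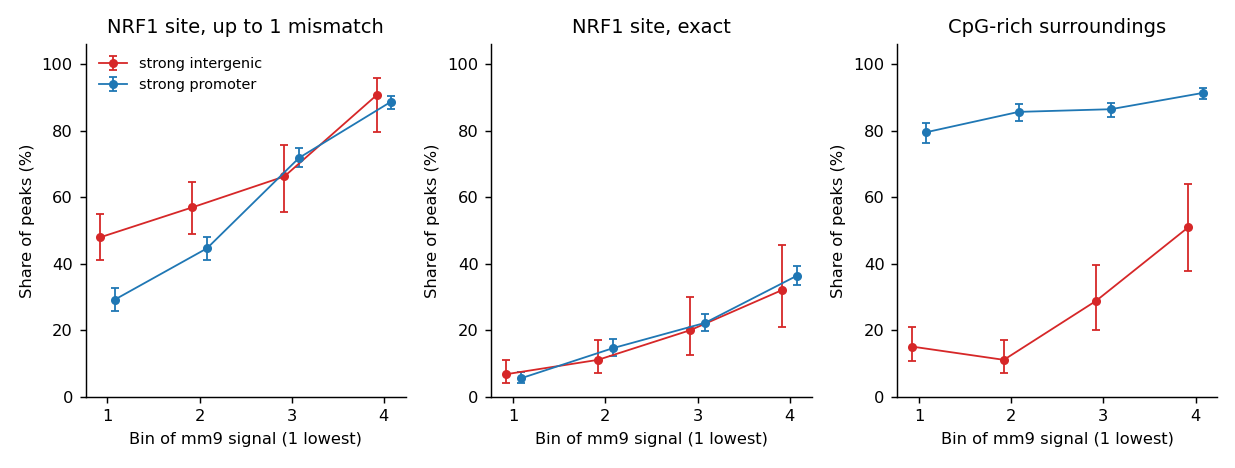
Share of strong intergenic and strong promoter mm9 peaks (vertical axes, %, points with 95% Wilson intervals) with an NRF1 site, with the exact consensus and with CpG-rich surroundings, by bin of the mm9 signal of all strong peaks (horizontal axes, 1 the lowest). The site shares part in the lower bins, 47.9% of intergenic and 29.2% of promoter peaks in the lowest, while the CpG-rich shares stay apart in all 4.

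The form of the site also varied. Each window with a site was represented by its best one, read on the strand that comes first in the alphabet, and these forms were noted after the values were seen, so no test was made. The sequence GAGCATGCGC, which has 1 mismatch, was the most frequent form in strong intergenic peaks, with 52 of 280 (18.6%), against 113 of 2157 in strong promoter peaks (5.24%). It was also 29 of the sites in strong gene-body peaks (18.6%). By contrast, GCGCAGGCGC made up 30 of the intergenic sites (10.7%) and 540 of the promoter sites. The exact forms GCGCATGCGC and GCGCACGCGC made up 11.8% and 10.7% of the intergenic sites, against 12.9% and 21.5% of the promoter sites.

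The surroundings of the summits differed far more than the sites. CpG-rich surroundings, with a GC fraction over 0.5 and a CpG observed/expected ratio over 0.6 in 1000 bp, were found in 96 of 478 strong intergenic peaks (20.1%, 95% interval 16.7 to 23.9), against 2999 of 3475 strong promoter peaks (86.3%, 85.1 to 87.4) and 57.4% of all mm9 peaks. The odds ratio was 0.0399 (two-sided Fisher's exact test, adjusted p = 2.4e-192). Against strong gene-body peaks, of which 18 of 283 (6.36%, 4.06 to 9.83) were CpG-rich, the intergenic share was higher, with an odds ratio of 3.7 (same exact test, adjusted p = 1.94e-07). The median CpG observed/expected was 0.392 in strong intergenic peaks, with quartiles of 0.281 and 0.585, against 0.317 in strong gene-body and 0.785 in strong promoter peaks. The median GC content was 49.8% in strong intergenic, 49.2% in strong gene-body and 59.5% in strong promoter peaks.

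CpG-rich surroundings were more common at higher signal. From the lowest to the highest signal bin, 15.1%, 11.1%, 28.8% and 50.9% of the strong intergenic peaks were CpG-rich, against 79.5%, 85.6%, 86.4% and 91.3% of the promoter peaks, and the intergenic share was the lower in each bin (two-sided Fisher's exact tests, adjusted p from 1.3e-72 to 9.12e-13). The intergenic peaks outside CpG-rich DNA had sites as well, 214 of 382 (56.0%), and so did 66 of the 96 inside it (68.8%). Among matched members, 8 of 151 with an mm10 signal under 100 were CpG-rich (5.3%), and 23 of 76 at 300 or more (30.3%). Over all 342 matched members, 42 (12.3%) were CpG-rich.

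**Figure D5:**
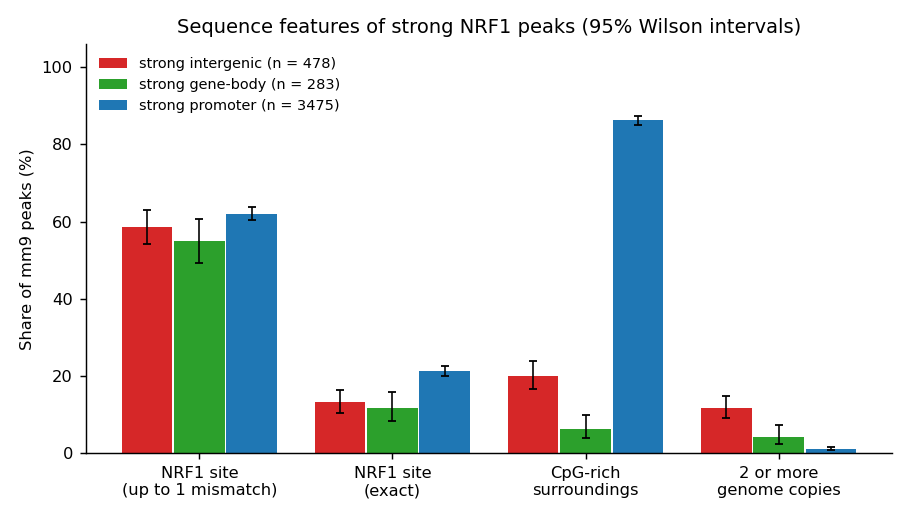
Share of mm9 peaks (vertical axis, %) with 4 sequence features in strong intergenic (n = 478), strong gene-body (n = 283) and strong promoter peaks (n = 3475), as bars from 0 with 95% Wilson intervals. The shares with a site of up to 1 mismatch are close, at 58.6%, 55.1% and 62.1%, while CpG-rich surroundings fall at 20.1%, 6.36% and 86.3%.

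Motifs of 3 other factors that act at promoters were scarcer under strong intergenic summits than under strong promoter summits, and that of AP-1 was more frequent. Within 50 bp, on either strand, the ETS family motif CCGGAAGT was in 3 of 478 intergenic peaks (0.628%) and 127 of 3475 promoter peaks (3.65%; two-sided Fisher's exact test, adjusted p = 0.000372). The SP family motif GGGCGGG was in 46 intergenic peaks (9.62%) and 847 promoter peaks (24.4%; same exact test, adjusted p = 5.35e-14). The YY1 motif ATGGCGGC was in 2 intergenic peaks (0.418%) and 97 promoter peaks (2.79%; same exact test, adjusted p = 0.00126). The AP-1 motif TGANTCA was the exception, in 11 intergenic peaks (2.3%) and 25 promoter peaks (0.719%; same exact test, adjusted p = 0.00509). The other 4 of the 8 motifs did not pass: NFY (CCAAT) was in 10.3% of intergenic and 12.3% of promoter peaks, the E-box CACGTG in 4.18% and 5.01%, CREB (TGACGTCA) in 0.837% and 1.35%, and the CTCF core motif in 0.628% and 0.23%. A match says only that these letters are in the window. Base composition differed between the 2 groups, with a median GC content of 49.8% around strong intergenic and 59.5% around strong promoter summits. The motif tests did not take it into account. Motif shares in gene-body peaks and over all mm9 peaks are not given.

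Part of the strong intergenic peaks lay in repeated DNA. The 101 bp around the summit had 2 or more copies in the mm9 genome (80% identity or more over 80 or more bases) for 56 of 478 strong intergenic peaks (11.7%, 95% interval 9.13 to 14.9), for 12 of 283 strong gene-body peaks (4.24%) and for 41 of 3475 strong promoter peaks (1.18%), and for 2.79% of all strong peaks. The odds ratio was 3.0 against gene-body peaks (two-sided Fisher's exact test, adjusted p = 0.000568) and 11.1 against promoter peaks (adjusted p = 4.24e-27). Weaker intergenic peaks had a like share, 173 of 1311 (13.2%). Of the 56, 34 had 10 or more copies and 23 had 100 or more. A site was present in 27 of the 56 (48.2%), against 253 of the 422 single-copy windows, and the median mm9 signal was 352 in the repeated and 481 in the single-copy windows. Reads from copies that align equally well cannot be placed with certainty, and the sources used here do not say how the authors treated them.

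The strongest of the windows with 100 or more copies are shown because both carry the same site, on the plus strand of mm9, in capitals.
Lao1 to Slc2a1, chr4:118669975-118670075: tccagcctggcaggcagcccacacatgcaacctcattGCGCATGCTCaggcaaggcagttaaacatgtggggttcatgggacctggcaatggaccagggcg
Gm10955 to Emcn, chr3:136950782-136950882: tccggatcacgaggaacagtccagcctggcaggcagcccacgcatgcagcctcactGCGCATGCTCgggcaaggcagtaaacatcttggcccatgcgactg
The window between Lao1 and Slc2a1, the gene of the glucose transporter GLUT1, had a signal of 4109 and 146 copies, and the window beside Emcn had a signal of 2769 and 312 copies. On mm10, a member of 451.9 lay 111318 bp from Slc2a1, where the mm9 window lay 111291 bp from it, and had 218 in replicate 1 and 238 in replicate 2. A member of 294.7 lay 53235 bp from Emcn, where the mm9 window lay 53199 bp from it, and had 141 in replicate 1 and 156 in replicate 2. That these are the same places was not established, since no coordinate was converted. The capitals are the most frequent intergenic form, read on the other strand. That form was 10 of the 27 best sites in repeated windows (37.0%) and 42 of the 253 in single-copy windows (16.6%), against 5.31% of the sites in single-copy strong promoter windows.

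The B box GGTTCGANNCC, the internal promoter element of tRNA genes that is bound by TFIIIC, was sought within 250 bp of the summits on both strands. It was in 13 of 478 strong intergenic peaks (2.72%), against 10 of 3475 strong promoter peaks (0.288%; odds ratio 9.69, two-sided Fisher's exact test, adjusted p = 9.18e-07), and in 1.02% of all mm9 peaks. Weaker intergenic peaks had it in 39 of 1311 (2.97%). The excess of strong over weaker intergenic peaks near tRNA genes on mm10 was thus not seen with the B box on mm9. The 13 peaks had a median mm9 signal of 1545, against 438 for the other 465, and 8 of them also held an NRF1 site. The strongest lay between Shf and Slc28a2, where the mm10 annotation has histidine tRNA genes beside the members. The B box is in capitals on the plus strand of mm9, read as the reverse complement.
Shf to Slc28a2, chr2:122201172-122201301: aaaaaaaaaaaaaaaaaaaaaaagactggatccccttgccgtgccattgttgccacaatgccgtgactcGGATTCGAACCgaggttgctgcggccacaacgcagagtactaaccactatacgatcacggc
The 3 members between Shf and Slc28a2 on mm10 had signals of 558.5, 396.3 and 117.4. Their signals were 289, 217 and 47.8 in replicate 1 and 273, 181 and 67.4 in replicate 2, and they lay 133, 121 and 36 bp from n-THgtg4, n-THgtg3 and n-THgtg5.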

How the data were processed

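NRF1 chromatin immunoprecipitation and sequencing was analysed in 2 biological replicates of CH12.LX, as 1 group, from the deposited peak lists. Per the text deposited with the samples, the authors called relaxed lists of peaks and background on mm10 for each replicate and for both pooled, with a control, and selected a conservative and an optimal set by irreproducible discovery rate. The sources used here do not name the aligner, the peak caller or its thresholds. The signal column was used as deposited by the authors, only for ranking and splitting the peaks of the same list. The deposited score columns (rank score and, on mm10, a significance column) and the −log10 significance column deposited for mm9 were not used. Depth could not be taken into account because it is unknown.

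On mm10, gene bounds, start sites and promoter sequences came from RefSeq (GRCm38.p6). Of 21631 coding genes on chromosomes 1 to 19 and X, 17274 took their starts from the promoter table, 4014 their strand from GENCODE vM1, and for 343 both ends counted as starts. A replicate's signal at a member is that of its strongest relaxed peak overlapping by 1 bp or more. Sequence was read from NCBIM37 (mm9) with GENCODE vM1, and no coordinate was converted between builds. Copies were counted on chromosomes 1 to 19 and X with BLAST 2.17.0 (word size 20, e-value 1e-15). Shares carry 95% Wilson intervals and were compared by two-sided Fisher's exact tests or an exact binomial test (scipy 1.17.1), with Benjamini-Hochberg adjustment over 6 main tests, 8 motifs and 20 added tests separately. The scripts were tested on simulated data. Peaks of 1 genome are not independent replicates, so p-values and intervals reflect counting error alone.

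The members, lists and tests were chosen with earlier results of these data known. The genome copies, the B box, the signal bins, the exact consensus test and the mm10 noncoding tests were added after seeing the data. Regions named by rule were the 12 strongest members and the 3 peaks on either side of each limit, with windows on mm9 for those alone between the same neighbouring genes. The regions at Chaserr, Abi3, Shf, Lao1, Emcn and Rps24 were chosen after their values were seen. Some regions that the rule names are not reported here. No sequence of chromosome 18 is shown.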

Additional observations from a re-analysis of the deposited data

How the results depend on the processing

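The number of members follows the limits of the rule: it was 1455 at a signal of 30 or more, 485 at 100 or more and 449 when noncoding genes and pseudogenes also bounded the intergenic space, against 892 as reported. It stayed within 1.5 times of that with the conservative set (887), with distance limits of 1000 bp (1054) and 10000 bp (744), and with gene 5′ ends as the only starts. Members among the strongest peaks numbered 889 to 891 with either replicate left out, and 841 among the 8628 strongest of both.

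The odds ratio of a site between strong intergenic and strong promoter peaks passed the threshold with the exact consensus, at 0.56, and over all mm9 peaks, at 0.735 (Fisher's exact test, adjusted p = 3.08e-05 and 1.14e-07). It did not pass under the other 7 alternatives, and was 1.01 within 25 bp. Against gene-body peaks it did not pass under any, and was 0.868 among the stronger 0.5 of the peaks. No alternative changed a call of CpG-rich surroundings, of the flanking windows or of noncoding starts on mm9, and the noncoding and tRNA start tests on mm10 had no alternative run, while a wider window made it 5 motifs past the threshold, against 4. The causes were not tested. The restrictions to single-copy windows and to peaks without a B box were chosen after seeing the data.

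No paired analysis was possible because there is 1 group. Unknown depth limits what an absent peak in a replicate can show. The sequence tests rest on the strong peaks of the mm9 set. Only 342 members were matched to a peak of that set. Many of those peaks, mostly at the weaker members, were below its strong limit.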
